A study of Mus musculus with 6 samples.

Results

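Cldn2 and Amotl2 are the 2 genes described here, out of 1386 entries in the authors' deposited table of genes that differed between intestinal epithelial cells of 2 groups of mice. Both encode proteins of the cell-cell junction, and both were taken by name. All mice were wild type on normal chow, and the labels give neither strain nor sex. One group was gavaged daily with 400000000 Akk for 7 weeks from 8 weeks of age. Akk is Akkermansia muciniphila, a bacterium of the gut that feeds on mucus. The control group received PBS. There were 3 libraries per group, and no label ties a library to a single animal, so the spread behind each p-value may be in part technical. The title of the series names the jejunum, while the labels give the tissue only as intestinal epithelium.

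Tight junctions seal the space between neighbouring epithelial cells near their apical side. Claudins form the strands of the seal, and single claudins set which ions pass. Claudin-2, the product of Cldn2, forms a paracellular pore for sodium and other small cations and for water. In the intestine it is known as a claudin of crypts and of leaky epithelia. Angiomotin-like 2, the product of Amotl2, is a scaffold at junctions and on actin, binds the transcriptional coactivator YAP in the Hippo pathway, and is itself encoded by a known target gene of YAP and its TEAD partners. Amotl2 is also known from endothelial cells.

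Cldn2 (ENSMUSG00000047230) lies on chromosome X, 139800828 to 139811386, plus strand, and Amotl2 (ENSMUSG00000032531) on chromosome 9, 102716672 to 102733418, plus strand (GENCODE M21, GRCm38). Both are protein-coding, with 3 annotated transcripts for Cldn2 and 14 for Amotl2. No other gene of that annotation overlaps either of them; the gene models the authors counted on may differ. Of the 11 annotated genes within 200000 bases of Cldn2 and the 16 within that distance of Amotl2, 0 were in the deposited table. The gene length behind the authors' FPKM values, which count over FPKM gives once depth is known, was 4343 bases for Cldn2 and 6318 bases for Amotl2. The summed exons are 3325 bases for Cldn2 and 6289 bases for Amotl2, so the FPKM of Cldn2 rests on a longer model than its GENCODE exons.

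The promoters are shown because the genes differ in what their start regions hold. Both were found in the RefSeq promoter table (GRCm38.p6), as windows of 300 bases that begin 250 bases before the start. Capitals mark matches to 5 short motifs, searched on both strands. GGAATG is known for the TEAD partners of YAP. TTTATG is known for the CDX factors of intestinal identity. TATAAA stands for the TATA box of core promoters. CTTTGAT is known for the Wnt effectors TCF and LEF. TGATAA is known for the GATA factors. No motif match overlapped another. The stretches printed lie before every annotated exon of the window. The Amotl2 window nevertheless lies inside the gene, which begins at 102716672 in GENCODE, so that earlier start is not covered. The stretches are followed, for Amotl2, by the surroundings of its matches inside the first exon that GENCODE annotates within the window.
Cldn2, chrX:139800558-139800807, plus strand: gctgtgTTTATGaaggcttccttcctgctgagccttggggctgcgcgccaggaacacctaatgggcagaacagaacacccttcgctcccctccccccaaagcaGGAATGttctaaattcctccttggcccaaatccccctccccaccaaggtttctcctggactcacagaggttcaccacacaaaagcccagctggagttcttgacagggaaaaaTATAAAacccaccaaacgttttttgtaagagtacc
Amotl2, chr9:102717554-102717667, plus strand: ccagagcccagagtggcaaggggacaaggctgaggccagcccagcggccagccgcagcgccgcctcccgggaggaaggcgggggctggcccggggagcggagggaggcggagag
Amotl2, TCF/LEF letters, chr9:102717700-102717720: tggttcgCTTTGATcccgagg
Amotl2, TEAD letters on the minus strand, chr9:102717732-102717751: actctcaCATTCCtggcata

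The Cldn2 window held the TATA box letters 35 bases before the RefSeq start and the CDX letters 244 bases before it. It held the TEAD letters 147 bases before the start and again, on the minus strand, 27 bases after it, past the printed stretch. The Amotl2 window held the TEAD letters 65 bases and the TCF/LEF letters 97 bases before the RefSeq start, and no TATA box letters. Of 32851 promoter windows of the same length, 14.7% held the TEAD letters, 11.9% the CDX letters, 13.6% the TATA box letters and 3.73% the TCF/LEF letters. The GATA letters, found in 9.05% of windows, were in neither. The share of G and C was 51.3% for Cldn2, near the median of 52.7% over all windows, and 68.7% for Amotl2, above that of 88.5% of the windows. These matches describe the letters of the windows, and no binding was measured.

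The table holds only genes that the authors had selected on these 6 libraries: 346 listed as higher in Akk and 1040 as lower, with no authors' p-value above 0.0498 and no fold under 1.50 in the authors' deposited table. A second test on the same libraries is thus not independent evidence, and the listed direction of a gene was fixed by that selection. For a gene outside the table no level is known. The depth implied by the values was 23613380 to 29440186 fragments per library. PBS replicate 2 stood apart: of the 1040 entries listed as lower, 1022 had their highest level there. The fold changes of Cldn2 and Amotl2 are therefore given with and without that library. Of the markers chosen for epithelial cell types, those of Paneth cells (14 of 16), crypt stem cells (7 of 15), proliferation (21 of 22), villus enterocytes (3 of 14) and goblet cells (1 of 8) had listed members, while 0 of 12 endothelial, 0 of 9 stromal and 0 of 11 leukocyte markers were listed.

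Cldn2 was lower in the Akk libraries. Its FPKM (fragments per kilobase of gene, scaled to the depth of the library) was 3.68, 46.5 and 3.36 in PBS replicates 1, 2 and 3. In the Akk libraries, in the same order, it was 1.27, 1.99 and 1.51. Every Akk library lay below every PBS library, and PBS replicate 2 stood far above the other 5. The counts behind these levels were 418, 4759 and 402 in PBS and 163, 239 and 170 in Akk.

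Exact Poisson 95% intervals, which cover counting error only, ran from 3.04 to 3.71 FPKM in PBS replicate 3, the lowest PBS library. They ran from 1.75 to 2.26 in Akk replicate 2, the highest Akk library. The gap between the groups was therefore wider than counting error at this depth. PBS replicates 1 and 3 had overlapping intervals, as had Akk replicates 1 and 3, so the order within each of these pairs could not be read. The intervals of Akk replicates 2 (from 1.75) and 3 (up to 1.76) only just touched. Touching intervals do not by themselves show that counting error covers a difference, and the order of these libraries was not tested.

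**Figure D1:**
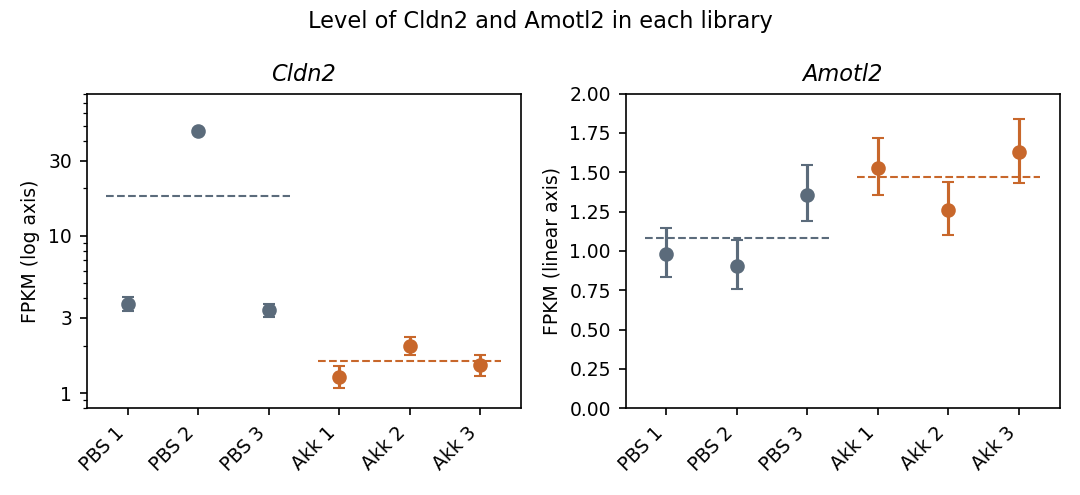
FPKM of Cldn2 (left, log axis) and Amotl2 (right, linear axis from 0) in the 3 PBS (grey) and 3 Akk (orange) libraries. Points are libraries, bars the exact Poisson 95% interval of the count, and dashed lines the group means. Cldn2 has PBS replicate 2 at 46.5 and all Akk libraries at 1.99 or lower, while for Amotl2 PBS replicate 3 (1.36) lies above Akk replicate 2 (1.26).

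The group means of Cldn2 were 1.59 ± 0.367 FPKM in Akk and 17.9 ± 24.8 in PBS (SD, n = 3 each). The SD of the PBS group exceeded its mean because of PBS replicate 2, which was 13.2 times the mean of PBS replicates 1 and 3 (3.52 FPKM). Against that mean alone the level in PBS was 2.21 times that in Akk. By edgeR's quasi-likelihood test over all 1386 entries the log2 fold change of Cldn2 (Akk over PBS) was -3.48 (SE 1.11), with an adjusted p of 0.0861 (unadjusted 0.0135). It did not pass the threshold of 0.05, and neither did any other entry (0 called, 0.0%), though 791 (57.1%) had an unadjusted p under 0.05. DESeq2 called 69.9% of the 1124 entries for which it gave an adjusted p. Of all 1386 entries limma called 0.144% (voom) and 0.0722% (on log2(FPKM + 0.1)), and edgeR with the replicate number as a block 0.433%.

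Without PBS replicate 2 the log2 fold change of Cldn2 was -1.15 (SE 0.25) and passed by edgeR, with an adjusted p of 0.0409. That call is read against a background of 19.5% of all entries passing there, 17.7% as lower in Akk. Cldn2 also passed by edgeR without PBS replicate 1 (-3.97, adjusted p = 0.0391; 53.0% of entries passed, 52.2% as lower) and without PBS replicate 3 (-3.97, adjusted p = 0.0395; 52.8% of entries passed, 50.9% as lower). DESeq2 gave the same log2 fold change with all libraries (-3.48) and returned no p for Cldn2, as for 262 of the 1386 entries.

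The absence of overlap between the groups is common in this table. It held, in the direction lower in Akk, for 65.0% of all entries and for 86.6% of those listed as lower. In the exact two-sided permutation test over the 6 libraries, the means of log2(FPKM + 0.1) of Cldn2 differed by -2.35 (Akk minus PBS), with p = 0.1. This is the smallest p that 3 against 3 libraries can give. Cldn2 took rank 77 of 1040 by fitted log2 fold change among the entries listed as lower, whose median was -2.19, and rank 165 without PBS replicate 2, where the median was -0.78. The authors' deposited table gives Cldn2 a log2 fold change of -1.66 and a p-value of 0.00117, rank 47 by size among the lower entries. That fold is smaller than the ratio of the deposited mean FPKM (log2 -3.49) and larger than the ratio without PBS replicate 2 (log2 -1.15).

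The crypt markers, like Cldn2, were highest in PBS replicate 2 and lower in Akk in sum. Their summed FPKM in PBS replicates 1, 2 and 3 was 249, 10325 and 281 for the 14 listed Paneth cell markers. It was 14.8, 609 and 15.9 for the 7 listed stem cell markers, and 60.1, 575 and 49.5 for the 21 listed proliferation genes. In Akk replicates 1, 2 and 3 the Paneth cell sum was 188, 207 and 224, the stem cell sum 7.42, 9.80 and 7.59, and the proliferation sum 27.7, 32.7 and 38.8. Among the Akk libraries the stem cell sum was highest in replicate 2, and the other sums in replicate 3. Cldn2 had its highest value in replicate 2, with an interval that only just touched that of replicate 3, and that order was not tested. Olfm4 made up most of the stem cell sum, with 498 FPKM in PBS replicate 2 and 6.58 in Akk replicate 2. The order of that sum between libraries therefore rests largely on 1 gene. Between PBS replicates 1 and 3 the order of Cldn2 could not be read, as given above. The proliferation sum was higher in replicate 1 there, and the Paneth and stem cell sums in replicate 3.

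Every listed marker of these 3 lists was on the lower side of the table and had its peak in PBS replicate 2, and none was at 0 in all libraries. That peak is not particular to these lists. Of all 1386 entries 1040 were listed as lower, and 1022 of those had their highest level in PBS replicate 2. The excess of PBS replicate 2 over the mean of PBS replicates 1 and 3 had a median of 35.6-fold over the Paneth cell markers, 9.30-fold over the stem cell markers and 11.1-fold over the proliferation genes, against 13.2-fold for Cldn2. Among all entries listed as lower the median was 5.77-fold, and Cldn2 took rank 130 of 1040. With PBS replicate 2 left aside, the ratio of PBS to Akk was 2.21 for Cldn2, 1.28 for the Paneth cell sum, 1.86 for the stem cell sum and 1.66 for the proliferation sum. A sum rests on its most abundant members. By edgeR without that library the median log2 fold change was -0.45, -0.98 and -0.80 over the single markers, in the same order, and -1.15 for Cldn2. Most markers of each list thus changed less than Cldn2, but some changed more, such as Ephb2 (-1.62) and Cdk1 (-1.47). In bulk RNA fewer cells of a type and less RNA per cell cannot be told apart, and the part of crypt cell content in the difference of Cldn2 was not tested.

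**Figure D2:**
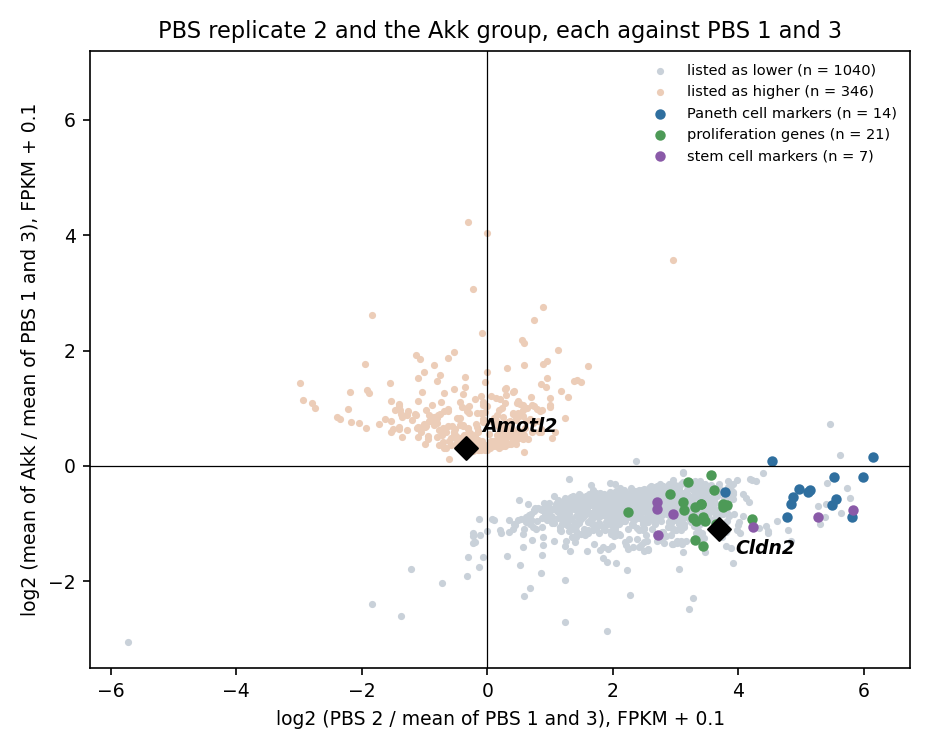
Each point is 1 of the 1386 entries: on the x axis the log2 ratio of PBS replicate 2, and on the y axis that of the mean of the Akk libraries, both over the mean of PBS replicates 1 and 3 (FPKM + 0.1). Cldn2 (diamond) lies among the proliferation genes and stem cell markers, low in Akk and high in PBS replicate 2, and Amotl2 lies close to the origin.

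Amotl2 had a higher mean level in Akk and did not pass the test. PBS replicates 1, 2 and 3 had 0.980, 0.901 and 1.36 FPKM, and the Akk libraries 1.53, 1.26 and 1.63. The groups overlapped, since PBS replicate 3 lay above Akk replicate 2, and PBS replicate 2 was the lowest library. The counts were 159, 135 and 236 in PBS and 285, 220 and 260 in Akk, so counting error alone was 5.92% to 8.61% of a level.

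The exact Poisson 95% intervals of PBS replicate 3 (1.19 to 1.54 FPKM) and Akk replicate 2 (1.10 to 1.44) overlapped, and their order could not be read. That of PBS replicate 3 also overlapped those of Akk replicate 1 (1.36 to 1.72) and Akk replicate 3 (1.43 to 1.84). The 2 lower PBS libraries, with upper bounds of 1.14 and 1.07, lay below the bounds of Akk replicates 1 and 3. The intervals of those 2 PBS libraries began at 0.833 (replicate 1) and 0.756 (replicate 2) and overlapped, so their order could not be read. A lack of overlap with Akk higher was seen for 9.38% of all entries and 37.6% of those listed as higher, and Amotl2 was not among them.

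The group means of Amotl2 were 1.47 ± 0.189 FPKM in Akk and 1.08 ± 0.244 in PBS (SD, n = 3 each). By edgeR its log2 fold change was 0.44 (SE 0.61), with an adjusted p of 0.508. Without PBS replicate 2 it was 0.33 (SE 0.25), with an adjusted p of 0.240. It passed in no fit that was run, leaving out each library in turn included, and a p that misses the threshold does not show equal levels.

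In the exact two-sided permutation test the mean of log2(FPKM + 0.1) was 0.43 higher in Akk, with p = 0.2, where 0.1 is the smallest the design allows. Amotl2 sat near the limits of the authors' selection. The authors' deposited table gives it a p-value of 0.0465, with 15 of the 346 higher entries above that, and a log2 fold change of 0.68 (1.60-fold). The log2 ratio of the deposited mean FPKM was smaller, 0.45.

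The log2 fold changes of both genes moved with the scale. Alternative factors were computed from the listed genes themselves, most of which are lower in Akk. Relative to the recovered depth, with the geometric mean of the 6 libraries set to 1, they put PBS replicate 2 at 4.39 (RLE) or 3.89 (TMM). By RLE, PBS replicates 1 and 3 were at 0.922 and 0.990 and the Akk libraries at 0.589 to 0.662. With the RLE and TMM factors the median log2 fold change over all entries moved from -1.85 to -0.15 and -0.17. Amotl2 then had a log2 fold change of 1.42 and 1.46, still short of the threshold by edgeR (adjusted p = 0.223 and 0.183), and Cldn2 had -1.25 and -1.34 (adjusted p = 0.218 and 0.182). Upper-quartile factors gave 1.05 and -1.85, with a median over all entries of -0.63. Both genes kept their direction under each scaling, while their order by size turned: with RLE and TMM factors Amotl2 had the larger fitted change.

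**Figure D3:**
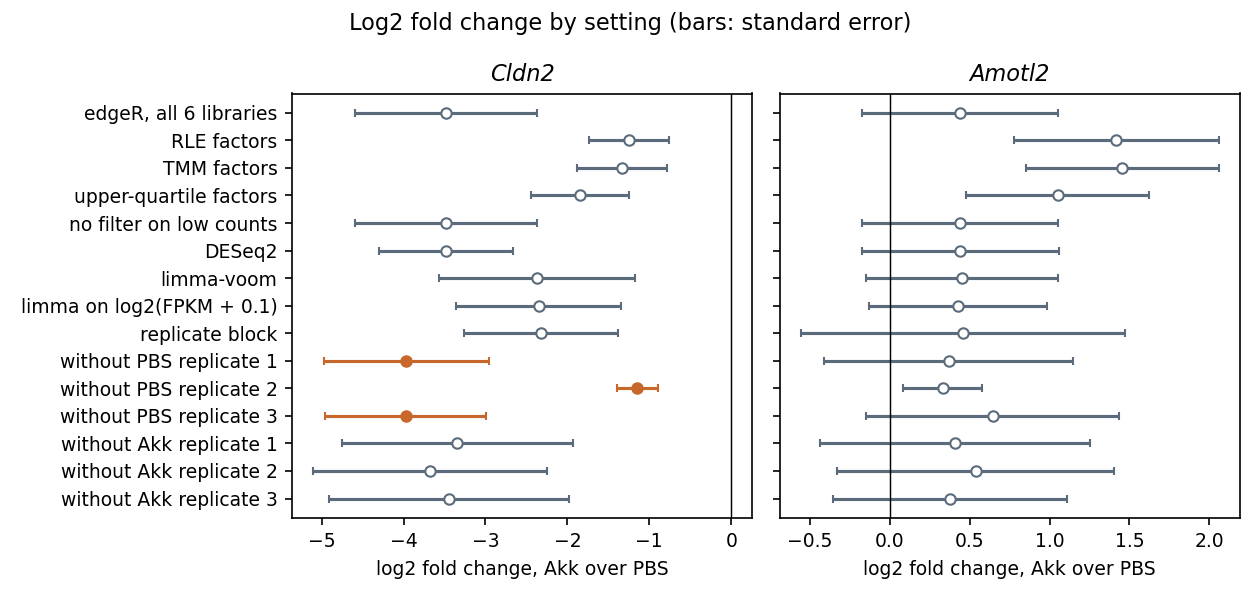
Log2 fold change (Akk over PBS) of Cldn2 and Amotl2 under each test, scaling and left-out library. Bars are standard errors, and filled orange points have an adjusted p under 0.05; the open DESeq2 point of Cldn2 has no p. Cldn2 is below 0 throughout and filled only without PBS replicate 1, 2 or 3, and Amotl2 is above 0 throughout and never filled.

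The ratio of the 2 genes within a library does not depend on depth or scaling. Cldn2 stood at 3.76, 51.6 and 2.47 times the FPKM of Amotl2 in PBS replicates 1 to 3. In Akk replicates 1 to 3 the ratio was 0.831, 1.58 and 0.929. It was above 1 in all PBS libraries and in Akk replicate 2, and the lowest PBS ratio exceeded the highest Akk ratio. The direction of this difference follows from the listing of one gene as lower and the other as higher, so it is given as a description without a test. On the GENCODE exon lengths all 6 ratios would be higher, by the same factor. Which libraries lie above 1 therefore depends on the gene lengths used, while the order of the libraries does not.

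The other junction genes were looked up in the table. Of 85 genes of tight junctions, polarity, adherens junctions and desmosomes chosen for comparison, 5 were in the table, and Amotl2 was the one listed as higher. The share of all measured genes that made the table is not known here, so this count cannot be called low or high. Of 32 genes of tight junction strands (claudins, occludin and its relatives, JAM proteins) Cldn2 was the single entry. Cldn15, which encodes the other sodium pore of the small intestine, and Cldn3, Cldn7, Ocln and Tjp1, which encode a sealing claudin, a basolateral claudin, occludin and the scaffold ZO-1, were not listed. Amot and Amotl1, the relatives of Amotl2, were not listed either.

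The 3 scaffold and polarity genes listed, of 30, were Amotl2, Pard3b and Ybx3. Pard3b, a relative of the polarity protein PAR-3, had an FPKM of 1.22, 3.32 and 1.16 in PBS replicates 1, 2 and 3, against 0.501, 0.371 and 0.599 in Akk. Its groups did not overlap, and its log2 fold change was -1.95 (SE 0.72; edgeR adjusted p = 0.0861). Without PBS replicate 2 it was -1.28 (SE 0.25; adjusted p = 0.0352), so Pard3b passed there as Cldn2 did.

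Ybx3, a Y-box protein that binds ZO-1 and represses transcription, had 13.4, 97.1 and 11.9 FPKM in PBS and 9.09, 9.41 and 7.89 in Akk. Without PBS replicate 2 its log2 fold change was -0.53 (SE 0.20; edgeR adjusted p = 0.0738). Pkp1, a desmosomal plakophilin and the single listed gene of 23 in adherens junctions and desmosomes, had 2.10, 15.1 and 1.18 in PBS and 0.666, 1.002 and 0.938 in Akk. Both had their highest level in PBS replicate 2 and did not overlap between the groups. The median log2 fold change of the 3 scaffold and polarity genes was -1.95, or -0.53 without PBS replicate 2, against -1.85 and -0.66 over all entries.

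The authors' own annotation in the deposited table assigns the KEGG tight junction pathway to 16 entries, 12 listed as lower and 4 as higher, both genes among them. The split over the whole table, 1040 lower and 346 higher, was about the same. This annotation was taken up after the values had been seen. It also covers Cftr, the cyclin D1 gene Ccnd1 and Prkaa2, a catalytic subunit gene of AMPK, so it is wider than the junction itself. The narrower GO term for the bicellular tight junction was on 4 entries: Cldn2 and Pard3b as lower, Amotl2 and Rap2c, a small GTPase gene, as higher.

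Around Amotl2, 4 of 34 genes of the Hippo pathway and of YAP target genes were listed, 3 of them as lower. The split over the whole table, 1040 lower and 346 higher, was about the same. The share of all measured genes that made the table is not known, so the count cannot be called low or high. Ly6a, a surface protein that marks a regenerative state of the gut epithelium, had an FPKM of 30.5, 12.3 and 33.6 in PBS replicates 1, 2 and 3, against 5.47, 4.36 and 5.81 in Akk. Its groups did not overlap, and unlike Cldn2 it was lowest among the PBS libraries in PBS replicate 2. Entries outside the lists used here, such as Ifit2 and Bst2, were also lower in PBS replicate 2 and in Akk. Their log2 ratios over the mean of PBS replicates 1 and 3 were -1.84 and -1.22 for PBS replicate 2, and -2.39 and -1.79 for the Akk mean (FPKM + 0.1). These entries are examples from outside the naming rule, and others went the other way in PBS replicate 2. Ifitm2 and Ifitm3 had log2 ratios of 3.38 and 1.91 there, and -1.26 and -2.86 for the Akk mean. Of the 1040 entries listed as lower, 1022 had their highest level in PBS replicate 2. Whether the level of Ly6a has to do with YAP was not tested. The log2 fold change of Ly6a was -2.29 (SE 0.66, edgeR adjusted p = 0.0861), and -2.63 without PBS replicate 2 (SE 0.20, edgeR adjusted p = 0.00292), where it passed.

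Vgll4, a cofactor that competes with YAP for TEAD, had 3.32, 22.9 and 3.98 FPKM in PBS and 1.99, 1.91 and 2.32 in Akk. Birc5, encoding survivin, a YAP target that is also a gene of mitosis, had 10.9, 38.0 and 4.94 in PBS and 3.40, 3.95 and 6.19 in Akk, and its groups overlapped. Neither passed by edgeR without PBS replicate 2 (adjusted p = 0.0585 and 0.0961). Yap1, the TEAD genes and the YAP targets Ccn1 and Ccn2 were not listed. The median log2 fold change of the 4 listed genes was -2.10, or -0.79 without PBS replicate 2, against -1.85 and -0.66 over all entries.

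Around Cldn2, 4 of 13 genes of paracellular and transcellular sodium movement were listed, a count that cannot be called low or high for the same reason. Cldn2 and Cftr were listed as lower, and Slc9a3 and Slc34a2 as higher. Cftr, the apical chloride channel of crypts, had an FPKM of 9.82, 36.3 and 9.21 in PBS replicates 1, 2 and 3, against 3.67, 3.52 and 6.85 in Akk. Its groups did not overlap, and its log2 fold change without PBS replicate 2 was -1.02 (SE 0.32; edgeR adjusted p = 0.0581).

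Slc9a3, encoding the apical sodium/proton exchanger NHE3, had 44.7, 40.8 and 65.2 FPKM in PBS and 150, 169 and 36.5 in Akk. Slc34a2, a sodium-phosphate cotransporter gene, had 7.09, 27.1 and 29.8 in PBS and 133, 102 and 19.1 in Akk. For both, Akk replicate 3 lay within or below the PBS range, unlike the other 2 Akk libraries, so the groups overlapped. Neither passed by edgeR with all libraries (adjusted p = 0.0991 and 0.0861) or without PBS replicate 2 (adjusted p = 0.150 and 0.0888). Of 12 transcription factor and receptor genes known in relation to claudin-2, among them Cdx2, Hnf4a and Vdr, 0 were listed.

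**Figure D4:**
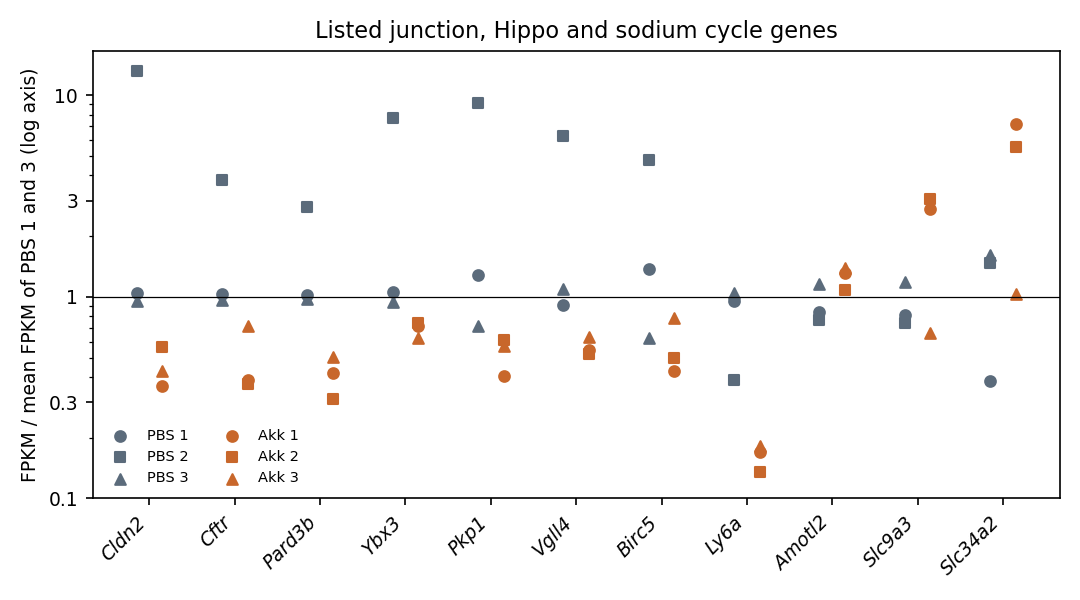
FPKM of the 11 listed junction, Hippo and sodium movement genes in each library, divided by the mean of PBS replicates 1 and 3 (log axis; grey PBS, orange Akk; symbols give the replicate number, which pairs no libraries). Cldn2 has the highest PBS replicate 2 ratio (13.2) of the 11, Ly6a has its lowest PBS value in that library, and Akk replicate 3 leaves the other Akk libraries for Slc9a3 and Slc34a2.

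The genes of the table most like Cldn2 were sought among the other 1156 with a symbol and a mean of at least 1 FPKM, by Pearson's r of log2(FPKM + 0.1) over the 6 libraries. Among the 5 of highest r were the processed pseudogene Gm6563, Exosc8 (a subunit of the RNA exosome), U2af1 (a splicing factor) and Slfn9 (a schlafen protein), each with r above 0.99. Such values are common, since 688 of the 1156 had r of at least 0.95, and the named genes were all highest in PBS replicate 2. Over the 5 libraries without it 148 had r of at least 0.95, the named genes kept r above 0.99, and Exosc8 and Gm6563 were again among the first 5, with Tmem65, Rpl35a and Pgap2. Exosc8 had an FPKM of 2.18, 17.0 and 1.98 in PBS replicates 1, 2 and 3, against 0.833, 1.31 and 0.990 in Akk. The 6 libraries are shared by every such pair of genes, and no test was made.

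The genes most like Amotl2 by the same measure were Npc1 (lysosomal cholesterol export), Skil (a repressor of TGF-beta signalling), Ccl24 (a chemokine), Plekha1 (a phosphoinositide-binding adaptor) and Bmp1 (a procollagen protease), with r from 0.92 to 0.98. Npc1 was the single gene at 0.95 or more, with all 6 libraries and without PBS replicate 2. This count cannot be set against that of Cldn2 as a measure of how common a pattern is. Amotl2 ran only from 0.901 to 1.63 FPKM and Cldn2 from 1.27 to 46.5, and r also depends on range and counting error. Npc1 had an FPKM of 4.98, 5.13 and 6.21 in PBS replicates 1, 2 and 3, against 7.11, 6.14 and 7.65 in Akk. As for Amotl2, PBS replicate 3 lay above Akk replicate 2. Ccl24 had the same order of the libraries except that Akk replicate 1 was its highest.

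**Figure D5:**
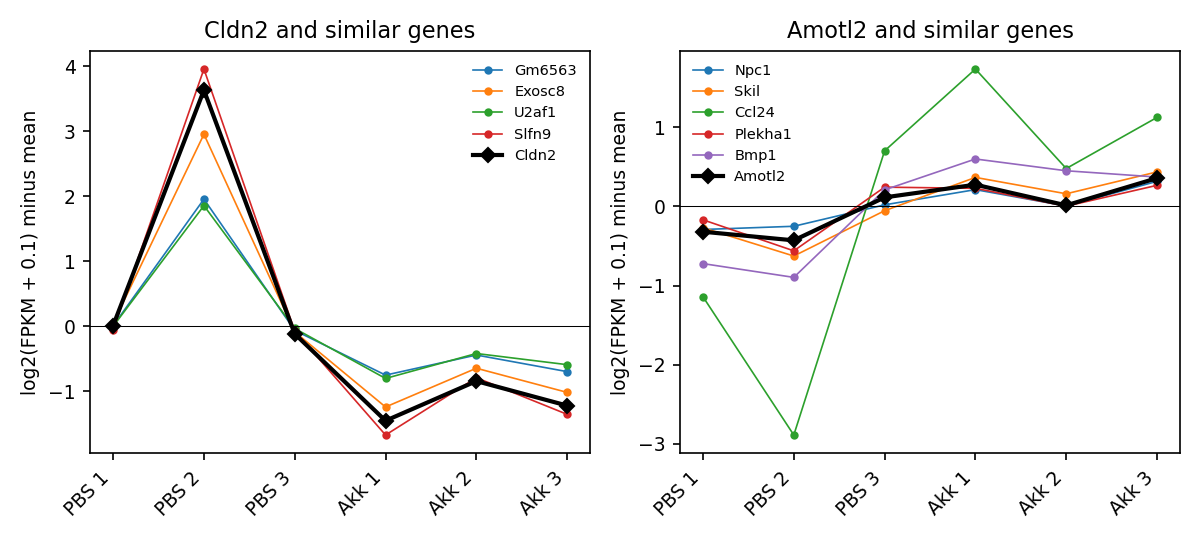
Log2(FPKM + 0.1), centred on each gene's mean, of Cldn2 (left) and Amotl2 (right) with genes from the 5 of highest Pearson's r to each (4 shown for Cldn2, 5 for Amotl2), in the 6 libraries. Lines join the libraries only to show which points belong to a gene. The genes like Cldn2 peak in PBS replicate 2, and those like Amotl2 are low in PBS replicates 1 and 2.

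Amotl2 can be set beside the 3 villus markers in the table, of 14 chosen, which were all listed as higher and had their lowest level in PBS replicate 2. Amotl2 had its lowest value there too, within counting error of PBS replicate 1. The summed FPKM of the 3 listed villus markers (Apoa4, Apob and Ada) was 2016, 581 and 3470 in PBS replicates 1 to 3, and 4403 to 5666 in Akk. Apoa4 made up most of that sum, with 1811 FPKM in PBS replicate 1 and 4527 in Akk replicate 1. The goblet cell marker Zg16 had 845, 668 and 1205 in PBS and 1198 to 1705 in Akk. PBS replicate 2 was 0.771 of the mean of PBS replicates 1 and 3 for Amotl2, where the median of the 346 entries listed as higher was 0.889, and it was the lowest library for 149 of these. The same ratio was 0.212 for the villus sum (0.190 for Apoa4, 0.465 for Apob and 0.258 for Ada) and 0.651 for Zg16. The part of cell content in the level of Amotl2 was not tested.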

How the data were processed

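The authors deposited one table that gives, per the file headers, a read count and an FPKM value per gene and library (3 PBS, 3 Akk), and the p-value and log2 fold change of their comparison. Per the labels' protocols RNA was extracted with Trizol and made into an Illumina mRNA library; the submitters' processing notes name mm10. How reads were aligned and counted, whether strand was used, and how p was computed is not given in the sources used here. Left out were 2 lines of annotation text. Depth was recovered from count over FPKM in 560 genes with at least 200 counts (absolute scale from the exon lengths of 548) and used as library size, since most entries of the selected table are listed as lower. It ranged from 23613380 to 29440186 fragments.

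Counts were tested with edgeR 4.0.16 (R 4.3.3; quasi-likelihood, filterByExpr, Benjamini-Hochberg over all 1386 entries at 0.05). The SE was the log2 fold change over the root of F. Alternatives were RLE, TMM and upper-quartile factors, no filter, DESeq2 1.42.0, limma 3.58.1 (voom, and log2(FPKM + 0.1)), the replicate number as a block, other pseudocounts and each library left out. Fits were tested on simulated data. The genes, lists and naming rule (both genes, all listed pathway members, the 5 most similar genes of each) were chosen with earlier results of these data known. One of the similar genes is not reported here.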

Additional observations from a re-analysis of the deposited data

How the results depend on the processing

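Cldn2 was lower and Amotl2 higher in Akk under all 14 alternatives of the count test. Leaving out each library in turn gave log2 fold changes from -3.97 to -1.15 for Cldn2 and from 0.33 to 0.64 for Amotl2; adjusted p ranged from 0.0391 to 0.223 and from 0.240 to 0.679. Cldn2 passed without PBS replicate 1, 2 or 3 and in no other fit that gave it a p (DESeq2 gave none); Amotl2 passed in none. The differences of mean log2(FPKM + pseudocount) kept their direction in all 8 alternatives each, in a design whose smallest p is 0.1. The count of entries past the threshold, 0 with edgeR, was 786 with DESeq2, 2 with limma-voom, 1 with limma on log2(FPKM + 0.1) and 6 with the replicate block, and 0 to 734 with a library left out (734, 270 and 732 without PBS replicates 1, 2 and 3); the cause was not tested. With the replicate block Cldn2 had -2.32 and Amotl2 0.46, neither past the threshold (adjusted p = 0.228 and 0.676). Same-numbered libraries share only a number: around the group means the 3 pairs had correlations of 0.22, -0.06 and -0.30, and 5 of the 6 libraries matched another number best. The filter removed no gene, so it says nothing about stability. Similarity without PBS replicate 2 was added after seeing the data. Depth limits Amotl2, whose 135 to 285 counts leave neighbouring libraries unresolved.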
